A study of Mus musculus with 8 samples.

Results

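The proteasome subunits outside the immunoproteasome were followed in Neuro2a cells, a mouse neuroblastoma line, that had been transfected for CRISPR activation (CRISPRa) of Scn2a, a voltage-gated sodium channel gene. Members were the genes of the count table named Psma, Psmb, Psmc, Psmd or Psme with a number, without the immunoproteasome genes Psmb8, Psmb9 and Psmb10, and they numbered 40 of 55367 genes. They comprise 16 genes of the core particle (8 alpha, 8 beta), 9 of the base (6 ATPases, 3 others), 8 of the lid, 3 assembly chaperones of the regulatory particle and 4 activators. CRISPRa cultures received 750 ng of sgRNA plasmid with 750 ng of a plasmid for sadCas9-VP64, an inactive Cas9 of Staphylococcus aureus fused to the activator VP64. The no-sgRNA control cultures received the sadCas9-VP64 plasmid alone, in an amount that the labels do not state. Both groups thus received the activator plasmid and only 1 a guide plasmid. The amount of plasmid may differ between the groups as well. Counts of poly(A)-enriched RNA were analysed for 3 libraries per group, the CRISPRa libraries being numbered 2, 3 and 5 and those of the control 2, 3 and 4. The labels do not say whether replicates came from separate cultures, so p-values measure the spread between these libraries, which may be technical.

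The proteasome degrades proteins that carry ubiquitin chains. Its core particle is a barrel of stacked rings, alpha subunits outside and beta subunits inside, of which Psmb5, Psmb6 and Psmb7 carry the protease sites. The regulatory particle that caps it has a base, whose ATPases unfold substrates, and a lid, which removes ubiquitin. Activators of the Psme genes can cap the same barrel instead: Psme1 and Psme2 form a joint complex known to be inducible by interferon, Psme3 forms a related nuclear complex alone, and Psme4 encodes a large single-chain activator. Interferons are also known to induce Psmb8, Psmb9 and Psmb10, which take the places of Psmb5, Psmb6 and Psmb7 in newly built immunoproteasomes.

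Libraries held from 29739422 to 34248514 counts. Those numbered 2 and 3 were the closest pair in each group, at a chi-square per degree of freedom of 4.88 (CRISPRa) and 6.28 (no sgRNA), while CRISPRa replicate 5 and no-sgRNA replicate 4 stood apart from their groups at 15.3 to 18.7. The same 3 members passed the test with and without these libraries. Scn2a, the targeted gene, had 7.74, 8.54 and 7.12 CPM (TMM-normalised counts, scaled to a common library size) with CRISPRa and 6.22, 6.49 and 4.11 CPM without the guide, each in the order of those numbers, so the groups did not overlap. It was 0.48 higher on the log2 scale (SE 0.19), and its adjusted p of 0.0899 in edgeR's quasi-likelihood test did not pass the threshold of 0.05 used throughout. Of 12 markers of neuroblastoma, 9 averaged at least 1 CPM, Gata2 among them, and Nefl and Nefm were among those that did not. The list summed to between 1600 and 1820 CPM with CRISPRa and between 1850 and 2010 CPM without the guide. Its members did not move one way: Phox2a (log2 -0.69, edgeR adjusted p 0.00204) and Hand2 (-0.43, adjusted p 0.000507) fell, while Chga (0.33, adjusted p 0.0025) and Tubb3 (0.20, adjusted p 0.0486) rose. Macrophage markers summed to at most 0.185 CPM in any library, with Adgre1, C1qa and Itgam at 0 counts. Fibroblast markers summed to 14.6 to 21.4 CPM with CRISPRa and 28.6 to 32.4 CPM without the guide, endothelial markers to 7.42 to 10.9 and 9.56 to 13.3 CPM, and astrocyte markers to 0.924 to 1.28 and 1.11 to 1.67 CPM. The fibroblast markers Col1a2 (log2 -0.88, edgeR adjusted p 0.00659) and Pdgfra (-0.70, adjusted p 0.00172) fell. Col1a1 (0.75, edgeR adjusted p 0.435) and Dcn (-0.50, edgeR adjusted p 0.465) did not pass, and Lum had too few counts to be tested. The endothelial marker Cdh5 rose, by 2.04 on the log2 scale (adjusted p 0.0105, to 1.70 ± 0.368 CPM, SD, n = 3), while Pecam1 did not pass (-0.47, adjusted p 0.103) and Kdr had 0 counts. In bulk RNA, fewer cells of a type and less RNA per cell cannot be told apart. The 10 interferon-stimulated genes, Isg15, Ifit1 and Irf9 among them, all rose with CRISPRa and together took 1350 to 1620 CPM against 52.6 to 58.7 CPM. The part of any of these lists in the proteasome results was not tested.

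Only Psme genes were among the members that passed the threshold. Of the 40 members, 38 had enough counts to be tested. Of these 38, 3 rose with CRISPRa (7.89%), namely Psme1, Psme2 and Psme4, and none fell. Of all 15117 tested genes, 18.7% passed in either direction, 9.47% higher and 9.25% lower. Among the 7905 tested genes whose mean level lay within the members' range, 15.7 to 277 CPM, 25.3% passed in either direction and 12.1% as higher. Beside the count of 0 lower members by edgeR, DESeq2 and limma-voom each also called 0 lower. By edgeR 1 of the 38 members, Psmb6, was lower at an unadjusted p under 0.05, where 2414 of all 15117 tested genes were. The groups did not overlap for 5 of the 38 members, the 4 activators and Psmd1, against 36.4% of all tested genes.

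**Figure D1:**
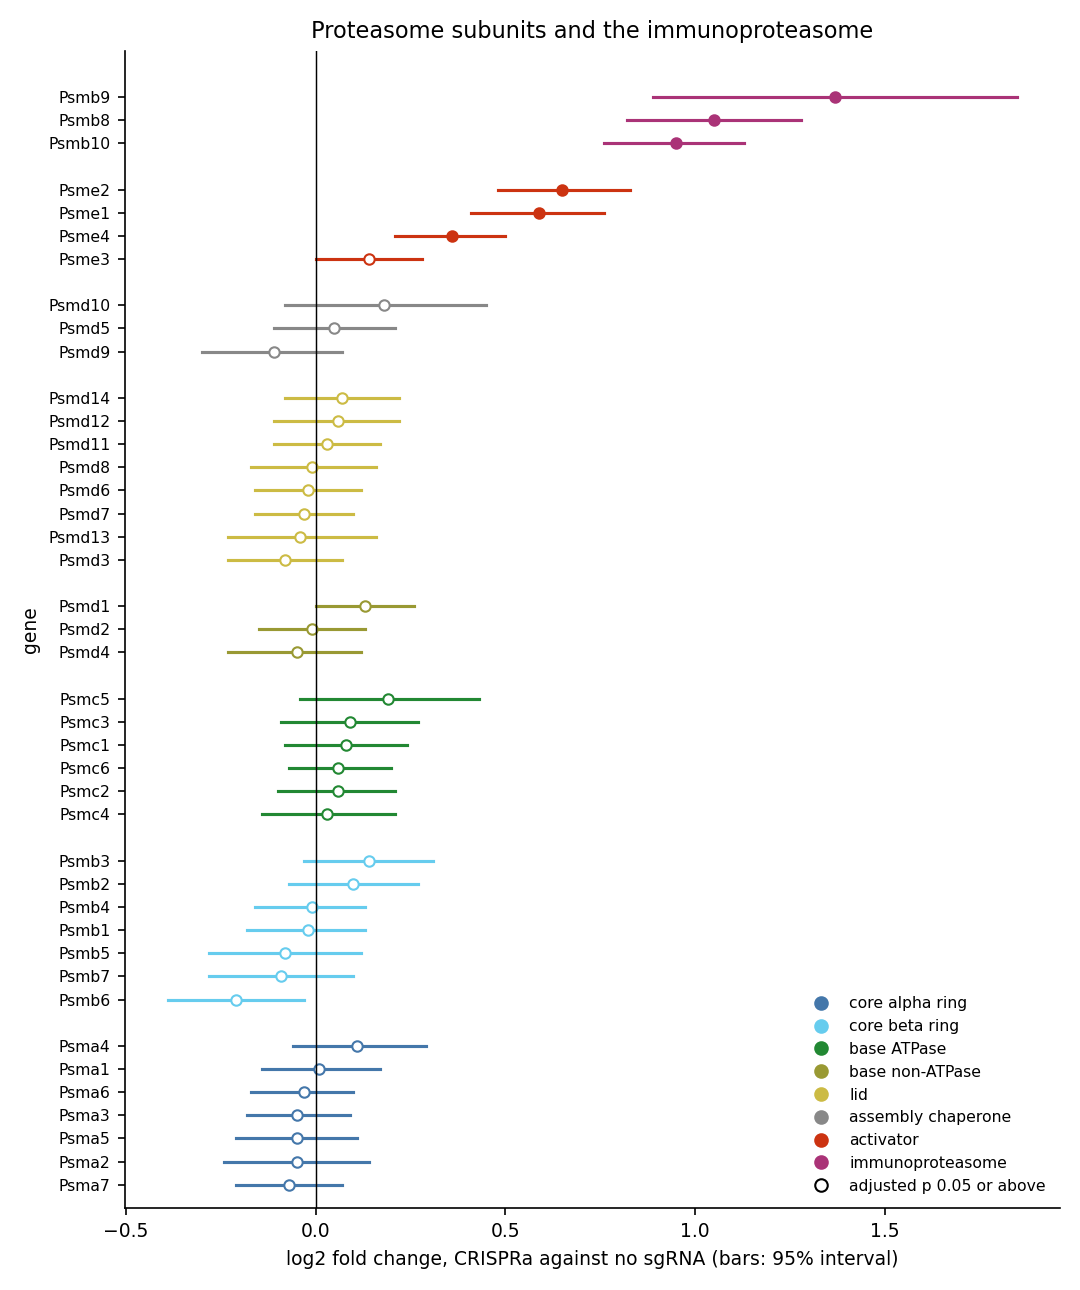
Log2 fold change of CRISPRa against no sgRNA (x axis) with its 95% interval for the 38 tested members and the 3 immunoproteasome genes (y axis), coloured by class; filled points passed an adjusted p of 0.05. The core, base and lid genes lie between -0.21 and 0.19, while Psme4, Psme1, Psme2 and the immunoproteasome genes lie to the right at 0.36 to 1.37.

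All members that rose are activator genes, so the DNA around their start sites is shown first, from 250 bases before the RefSeq start to 30 bases after it (GRCm38.p6, 5′ to 3′ on the gene's strand). Capitals mark matches, on either strand, to 3 motifs that were searched: GAAA, any 2 bases and GAAA again, a core of the interferon-stimulated response element; TTCNNNGAA, the gamma-activated site; and TGANNNNGC, the form bound by NRF1 (Nfe2l1) and NRF2 (Nfe2l2). The motifs were not found to overlap in these 4 stretches. The Psme1 stretch is chr14:55578244-55578523 on the plus strand, and that of Psme2 is chr14:55591072-55591351 on the minus strand. Those of Psme3 (chr11:101315963-101316242) and Psme4 (chr11:30771525-30771804) are both on the plus strand.
Psme1: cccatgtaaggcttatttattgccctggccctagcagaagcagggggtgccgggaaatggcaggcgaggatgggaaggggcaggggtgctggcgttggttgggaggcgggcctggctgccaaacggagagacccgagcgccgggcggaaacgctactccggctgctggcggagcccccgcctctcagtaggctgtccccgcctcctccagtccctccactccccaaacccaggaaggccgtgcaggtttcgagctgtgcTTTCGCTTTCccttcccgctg
Psme2: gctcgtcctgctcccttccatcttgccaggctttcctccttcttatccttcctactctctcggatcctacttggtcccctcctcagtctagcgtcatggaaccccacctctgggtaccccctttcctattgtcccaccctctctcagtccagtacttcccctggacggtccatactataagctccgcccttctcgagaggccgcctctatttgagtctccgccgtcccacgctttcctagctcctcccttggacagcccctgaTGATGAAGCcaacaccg
Psme3: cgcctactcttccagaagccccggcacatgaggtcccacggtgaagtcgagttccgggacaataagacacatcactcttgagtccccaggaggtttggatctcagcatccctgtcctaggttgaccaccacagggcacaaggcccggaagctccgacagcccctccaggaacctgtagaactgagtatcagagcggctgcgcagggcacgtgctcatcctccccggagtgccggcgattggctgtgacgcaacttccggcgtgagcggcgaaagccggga
Psme4: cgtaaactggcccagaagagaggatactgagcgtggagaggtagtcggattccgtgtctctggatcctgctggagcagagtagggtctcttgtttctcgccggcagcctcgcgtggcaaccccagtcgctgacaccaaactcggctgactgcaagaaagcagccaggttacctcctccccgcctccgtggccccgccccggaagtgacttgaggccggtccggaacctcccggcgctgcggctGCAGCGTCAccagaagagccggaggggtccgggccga

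The Psme1 stretch holds the interferon motif on its reverse strand, read here as TTTCGCTTTC, from base 10 after the RefSeq start. In GENCODE the gene starts before this stretch, at 55578123. The Psme2 and Psme4 stretches hold a TGANNNNGC match each, and the Psme3 stretch holds none of the 3 motifs. RefSeq lists a further Psme2 start, whose window overlaps the one shown and holds the same match. Of the 40 members, 33 had a window in the table. The interferon motif occurred in 4 of these genes (12.1%) and in 4 of their 36 windows (11.1%), against 3.44% of all 32851 windows of 300 bases. The other 3 genes were Psmb3, Psmd4 and Psmd9, with log2 fold changes of 0.14, -0.05 and -0.11 and edgeR adjusted p-values of 0.262, 0.716 and 0.416. TGANNNNGC occurred in 19 of the 33 genes (57.6%) and in 21 of the 36 windows (58.3%), against 41.3% of all windows. TTCNNNGAA occurred in 1 gene, Psmd2, and in 1 of the 36 windows (2.78%), against 8.3%. A match describes the letters in the window and not a bound site.

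Psme1 and Psme2, the partners of the interferon-inducible activator, rose 1.5-fold and 1.57-fold. Psme1 (chromosome 14, 55578123 to 55581529, plus strand, protein coding, GRCm38) was at 121, 130 and 132 CPM in CRISPRa libraries 2, 3 and 5, and at 83.0, 76.2 and 95.5 CPM in control libraries 2, 3 and 4, the order used throughout. Every CRISPRa library lay above every control library. The mean was 128 ± 5.92 against 84.9 ± 9.79 CPM (SD, n = 3). By edgeR this was 0.59 on the log2 scale (SE 0.08, 95% interval 0.41 to 0.76), with an adjusted p of 0.000183. Psme2 (chromosome 14, 55587441 to 55591113, minus strand, protein coding) was at 92.5, 97.7 and 100.1 CPM with CRISPRa and at 54.2, 63.5 and 66.8 CPM without the guide. Again the groups did not overlap. The mean was 96.8 ± 3.90 against 61.5 ± 6.52 CPM (SD, n = 3). edgeR put the difference at 0.65 on the log2 scale (SE 0.08, 95% interval 0.48 to 0.83), with an adjusted p of 7.11e-05.

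The value of Psme2 is uncertain in part, because 28.3% of its 50-base words in GENCODE transcripts also occur in Psme2b, a gene of like sequence on chromosome 11. Psme2b itself, which is no member, had 124, 92 and 148 counts with CRISPRa and 62, 48 and 58 without the guide. edgeR put it at 1.00 on the log2 scale (SE 0.26, adjusted p 0.0157), and 68.7% of its words occur in Psme2. The adjusted p was 0.0721 without CRISPRa replicate 5 and 0.063 without no-sgRNA replicate 3, and 0.0742 with libraries 2 and 3 alone, so the call was lost in these fits. Psme1 shares 5.47% of its words with other genes.

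Psme4, the single-chain activator (chromosome 11, 30771726 to 30880361, plus strand, protein coding), rose 1.28-fold. It was at 168, 164 and 181 CPM with CRISPRa and at 138, 138 and 124 CPM without the guide. The CRISPRa libraries all lay above the controls. The mean was 171 ± 8.99 against 133 ± 8.24 CPM (SD, n = 3). By edgeR this was 0.36 on the log2 scale (SE 0.07, 95% interval 0.21 to 0.50), with an adjusted p of 0.00224. Psme3 (chromosome 11, 101316213 to 101323537, plus strand, protein coding), which encodes the nuclear relative of Psme1 and Psme2, was at 213, 209 and 228 CPM with CRISPRa. Without the guide it was at 207, 195 and 189 CPM. These groups did not overlap either, but the separation was narrow, with 209 CPM as the lowest CRISPRa value and 207 CPM as the highest control. edgeR's estimate of 0.14 on the log2 scale (SE 0.06, 95% interval 0.00 to 0.28) had an adjusted p of 0.157 and did not pass. No word of Psme3 or Psme4 was shared with another gene.

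Ratios between genes within a library do not depend on the scaling between libraries. Per kb of exon length, the level of Psme1 was 0.758, 0.834 and 0.771 of that of Psme3 with CRISPRa and 0.537, 0.522 and 0.676 without the guide. For Psme2 over Psme3 the ratio went from 0.525 ± 0.0785 to 0.748 ± 0.0304, and for Psme4 over Psme3 it went from 0.239 ± 0.00938 to 0.278 ± 0.00192 (SD, n = 3). In each of these 3 ratios every CRISPRa library lay above every control, with p = 0.1 in a two-sided exact permutation test of the log2 ratio, the smallest that 3 against 3 libraries allow. The ratio of Psme1 to Psme2 was 1.05 ± 0.0117 with CRISPRa and 1.11 ± 0.135 without the guide (SD, n = 3), with overlapping groups and p = 0.7 in the same exact test. Over the 7 ratios computed, Benjamini-Hochberg adjusted values were 0.117 for the 6 at 0.1 and 0.7 for this one, so none passes 0.05. Per kb of the longest coding transcript, Psme1 stood at 1.41 ± 0.0732 of the Psme3 level with CRISPRa and 1.04 ± 0.153 without the guide, and Psme2 at 1.24 ± 0.0503 and 0.870 ± 0.130 (SD, n = 3).

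**Figure D2:**
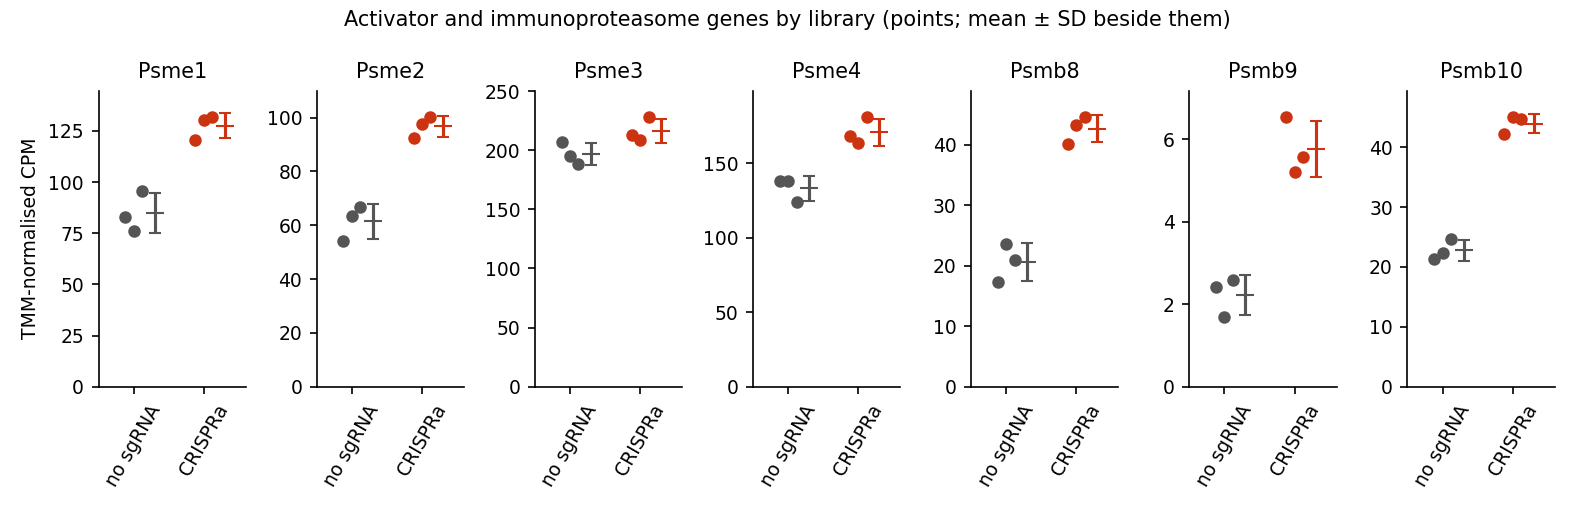
TMM-normalised CPM (y axes, from 0, a scale per gene) of the 4 activator genes and the 3 immunoproteasome genes in each no-sgRNA library (grey) and CRISPRa library (red), with the mean ± SD of 3 libraries beside the points. The groups are apart for Psme1, Psme2, Psme4 and Psmb8 to Psmb10, and nearly touch for Psme3 at 207 and 209 CPM.

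No gene of the core particle passed the test. None of its 14 tested genes was called by edgeR, DESeq2 or limma-voom, and the median log2 fold change was -0.046 for the 7 tested alpha genes and -0.021 for the 7 tested beta genes, beside -0.0071 over all tested genes. The 95% intervals of the 14 genes reached from -0.39, for Psmb6, to 0.31, for Psmb3, or from 0.763 to 1.24 of the control level. These intervals hold for each gene taken alone, in the main fit. Summed over its members, the core particle took 1364, 1352 and 1424 CPM with CRISPRa and 1309, 1412 and 1491 CPM without the guide. The controls thus lay on both sides of the CRISPRa libraries.

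Among the alpha subunits, which form the gated outer rings, Psma4 had the smallest p. It was at 99.0, 87.9 and 94.7 CPM with CRISPRa and at 78.2, 84.9 and 97.3 CPM without the guide. The groups overlapped, and edgeR's log2 estimate of 0.11 (SE 0.08) had an adjusted p of 0.385. Of the other 6 tested alpha genes, 5 had values between -0.07 (Psma7) and -0.03 (Psma6), and Psma1 was at 0.01. Psma8, an alpha subunit known from the testis, had 0 counts in all 6 libraries, which allows up to 0.0876 to 0.101 CPM in a library at 3 counts, by counting error alone. Words shared with other genes make the value of Psma5 uncertain, at 50% of its words, mainly with the annotated gene Gm8394.

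Psmb6, the subunit whose protease site cuts after acidic residues, had the lowest log2 fold change of all members. It was at 80.9, 78.3 and 77.1 CPM with CRISPRa and at 79.1, 94.5 and 100.2 CPM without the guide. The lowest control lay among the CRISPRa libraries. edgeR's log2 estimate of -0.21 (SE 0.08) had an adjusted p of 0.0931 and did not pass. Without no-sgRNA replicate 2, that lowest control, it was -0.31 with an adjusted p of 0.0164. Psmb5, which carries the chymotrypsin-like site, was at -0.08 (edgeR adjusted p 0.596), and 54.1% of its words occur in other genes, so its value is uncertain. Psmb7, which carries the trypsin-like site, was at -0.09 (edgeR adjusted p 0.529). Psmb11, the beta subunit of thymic epithelium, had 6, 0 and 2 counts with CRISPRa and 8, 4 and 0 without the guide and was not tested.

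The catalytic subunits can be set against the interferon-inducible subunits that replace them, which are not members and all rose. Psmb8 went from 20.6 ± 3.16 to 42.6 ± 2.24 CPM (SD, n = 3). edgeR put the difference at 1.05 on the log2 scale (SE 0.11), with an adjusted p of 9.41e-06. Psmb9 went from 2.23 ± 0.483 to 5.77 ± 0.681 CPM. By edgeR this was 1.37 on the log2 scale (SE 0.22), with an adjusted p of 0.000719. Psmb10 went from 22.8 ± 1.75 to 43.9 ± 1.55 CPM. edgeR put the difference at 0.95 on the log2 scale (SE 0.09), with an adjusted p of 3.29e-06. For each of the 3, all CRISPRa libraries lay above all controls. Whether counting used strand is unknown, and 14.7% of the exonic bases of Psmb8 lie in exons of Gm20496 as well. For Psmb9, 5.79% lie in exons of other genes, mainly Tap1. The part of these overlaps in the values was not tested.

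Per kb of exon length, Psmb8 stood at 0.317, 0.308 and 0.293 of the Psmb5 level with CRISPRa and at 0.114, 0.149 and 0.157 without the guide, a 2.21-fold higher ratio. Psmb10 stood at 1.38 ± 0.0341 of the Psmb7 level with CRISPRa and at 0.676 ± 0.0719 without it (SD, n = 3), a 2.04-fold higher ratio. Psmb9 stood at 0.0374 ± 0.00365 of the Psmb6 level against 0.0127 ± 0.00332 (SD, n = 3), a 3.02-fold higher ratio. These folds are taken from the mean log2 ratios. The Psmb5 level under Psmb8 is uncertain, since 54.1% of the words of Psmb5 occur in other genes. The 3 ratios separated the groups completely, at p = 0.1 in the two-sided exact permutation test. The level of a ratio, though not its fold, depends on the length used. Per kb of the longest coding transcript, Psmb10 stood at 0.607 ± 0.0150 of the Psmb7 level with CRISPRa and at 0.298 ± 0.0317 without the guide (SD, n = 3), so it lay above Psmb7 only on the exon-length scale. On the same scale Psmb8 stood at 0.635 ± 0.0252 and 0.291 ± 0.0482 of the Psmb5 level (SD, n = 3). Psmb9 was the scarcest of the 3 immunoproteasome transcripts in both groups on the CPM scale.

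In the base of the regulatory particle no gene passed either. None of its 9 genes was called by edgeR, DESeq2 or limma-voom. All 6 ATPases had a positive log2 fold change, from 0.03 (Psmc4) to 0.19 (Psmc5), with a median of 0.071. Psmc5 was at 107, 108 and 152 CPM with CRISPRa and at 103, 111 and 107 CPM without the guide. Its highest value, in CRISPRa replicate 5, stood apart from the other 5 libraries, and the edgeR adjusted p was 0.243. Without that library the log2 estimate of Psmc5 was 0.02 and the ATPase median 0.00. Each of the 6 ATPases was at its highest among the CRISPRa libraries in replicate 5. There they summed to 834 CPM against 698 and 712 CPM in replicates 2 and 3 and 689 to 724 CPM in the controls. The same library was the highest of its group for 27 of the 38 tested members, among them all 4 activators. The share over all tested genes was not computed.

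Of the 3 further base subunits, Psmd1, a scaffold of the base, had the smallest p. It was at 139, 146 and 147 CPM with CRISPRa and at 132, 131 and 131 CPM without the guide. The groups did not overlap, but edgeR's log2 estimate of 0.13 (SE 0.06) had an adjusted p of 0.147. Psmd1 is at 0.14 (log2, adjusted p 0.0108) in the authors' deposited table of 8 samples. Psmd2, the other scaffold and the most abundant member by CPM, was at 276 ± 5.20 and 278 ± 18.1 CPM (SD, n = 3), and Psmd4, a ubiquitin receptor, was at -0.05 (edgeR adjusted p 0.716). Psmd2 shares 17.8% of its words with other genes.

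The lid held no gene that passed. None of the 8 was called by edgeR, DESeq2 or limma-voom, their log2 fold changes ran from -0.08 (Psmd3) to 0.07 (Psmd14), and their median was -0.012. The 95% intervals of all 8 lay between -0.23 and 0.22. Psmd3, with the smallest p of the class, was at 128, 127 and 134 CPM with CRISPRa and at 126, 137 and 148 CPM without the guide (log2 fold change -0.08, SE 0.07, edgeR adjusted p 0.459). Psmd14, the deubiquitinase of the lid, was at 86.4 ± 4.58 against 82.4 ± 2.35 CPM (SD, n = 3), with an edgeR adjusted p of 0.541. All 8 lid genes were at their highest control value in no-sgRNA replicate 4, as were 7 of 7 tested alpha genes. So were 4 of 7 tested beta genes, 4 of 6 ATPases, 2 of 4 activators and 28 of all 38 tested members. The share over all tested genes was not computed here either.

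The chaperones that help assemble the base also did not pass by any of these 3 tools. Psmd10 (gankyrin) was at 14.6, 18.2 and 17.5 CPM with CRISPRa and at 15.8, 13.3 and 15.1 CPM without the guide. The groups overlapped, and edgeR's log2 estimate of 0.18 (SE 0.12) had an adjusted p of 0.335. It had 396 to 594 counts per library, the fewest of the tested members, and a 95% interval of -0.08 to 0.45. Psmd5 was at 0.05 (edgeR adjusted p 0.685) and Psmd9 at -0.11 (edgeR adjusted p 0.416). Psmd9 is uncertain, since 24.7% of its words occur in Gm26745, which overlaps it.

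Set side by side, the median log2 fold change was 0.473 for the 4 activators, 0.071 for the ATPases, 0.052 for the chaperones, and between -0.046 and -0.01 for the alpha ring, beta ring, remaining base and lid. Summed over members, the activators took 594, 600.4 and 640.2 CPM with CRISPRa and 482, 472 and 475 CPM without the guide, a ratio of 1.28. Core, base and lid together took 3501 ± 134 CPM with CRISPRa and 3480 ± 186 CPM without it (SD, n = 3), a ratio of 1.01. These sums and medians describe the classes, and no test was made of the difference between classes.

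**Figure D3:**
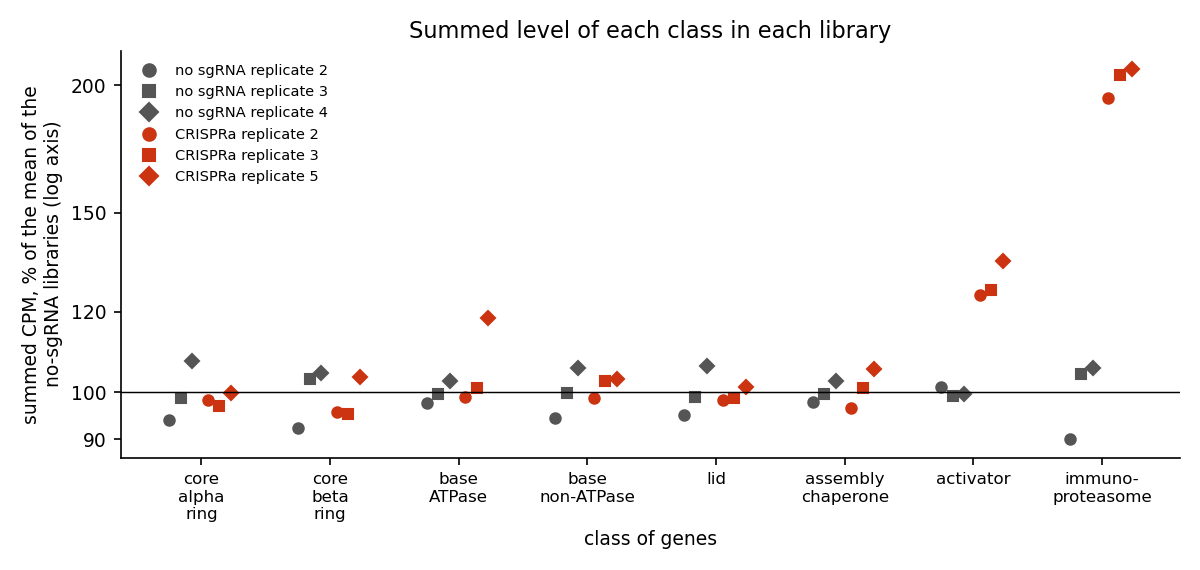
Summed CPM of each class (x axis) in each library, as a percentage of the mean of the 3 no-sgRNA libraries (y axis, log scale); shapes mark the replicates. The activator and immunoproteasome sums of the CRISPRa libraries lie above all controls, while the groups overlap in every other class; the ATPase sum of CRISPRa replicate 5, 834 CPM, lies above the rest of its class.

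Compared per kb of exon length in the no-sgRNA libraries, the particle's subunits were compared by class. The median was 39.1 CPM per kb for the alpha ring, 43.8 for the beta ring, 45.6 for the ATPases and 28.4 for the lid. In the alpha ring levels ran from 21.0 (Psma2) to 133 CPM per kb (Psma6), and in the lid from 14.6 (Psmd11) to 101 (Psmd7), which differs 6.93-fold. Chaperones were lower, at 5.25 (Psmd9) to 10.0 CPM per kb (Psmd10). Among the activators the order was Psme3 at 66.7, Psme1 at 38.4, Psme2 at 34.9 and Psme4 at 15.9 CPM per kb, and of these neighbours in the order only Psme1 and Psme2 overlapped across libraries.

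The exon length of the count table joins the exons of all transcripts of a gene and can exceed that of any 1 transcript. Per kb of the longest coding transcript, the medians were 73.6 (alpha), 81.1 (beta), 75.5 (ATPases) and 49.1 CPM per kb (lid), and the spread within the ATPases was 2.03-fold in place of 3.11-fold. The spread within the lid was 4.86-fold in place of 6.93-fold, with Psmd13 lowest in place of Psmd11. On that scale Psme1, at 76.3 CPM per kb, was not below Psme3, at 73.8, so the order of these genes depends on the length used.

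**Figure D4:**
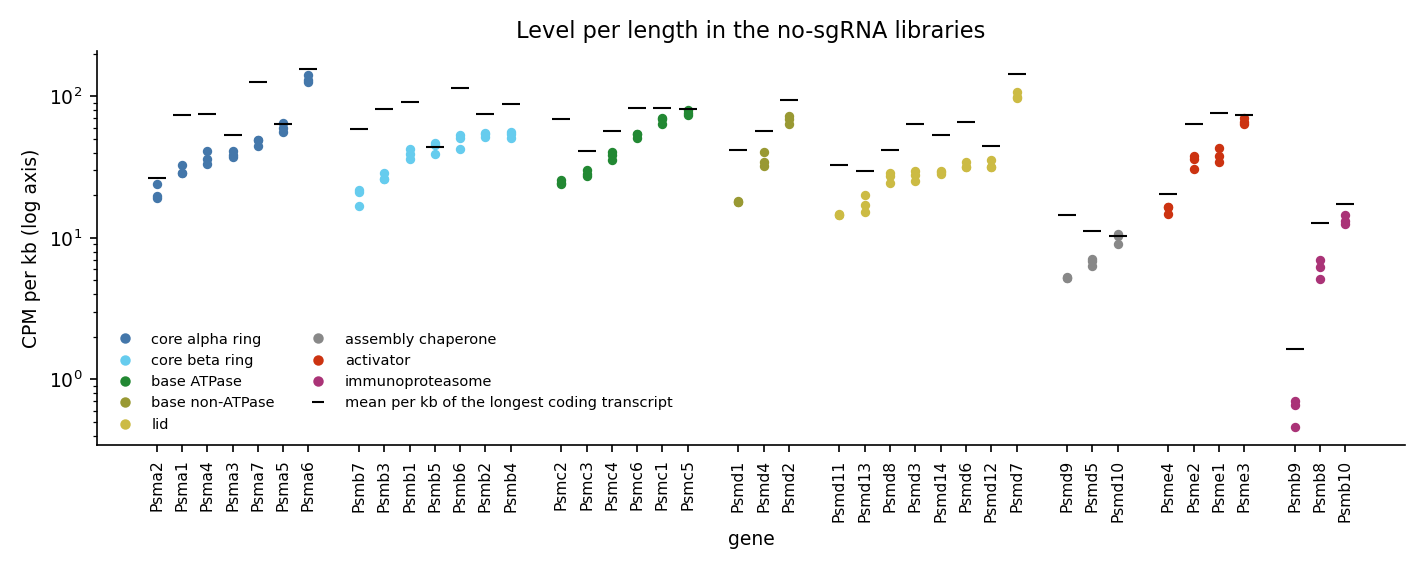
CPM per kb of exon length (y axis, log scale) of each tested member and immunoproteasome gene (x axis) in the 3 no-sgRNA libraries (points); black bars give the mean per kb of the longest coding transcript. Chaperones and immunoproteasome genes lie below most of the particle, and Psma6 and Psmd7 above it.

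Position was examined because Psme1 and Psme2 are neighbours, with 5911 bases between them. The table holds 16 genes within 50 kb of the pair, of which 10 were tested. Apart from the pair, on which the window was centred, 3 of 8 tested genes rose and none fell by the test, where 9.47% of all tested genes rose. Rnf31, a subunit of the linear ubiquitin ligase, starts 594 bases from Psme2 on the opposite strand. It rose from 47.3 ± 3.73 to 67.5 ± 5.41 CPM (SD, n = 3). By edgeR this was 0.51 on the log2 scale (SE 0.09), with an adjusted p of 0.000812. Irf9, part of the transcription factor complex of type I interferon signalling, rose from 23.3 ± 0.598 to 130 ± 5.19 CPM. edgeR put the difference at 2.48 on the log2 scale (SE 0.07), with an adjusted p of 1.49e-12. Irf9 starts within the end of Rnf31 on the same strand. Of its exonic bases, 2.28% lie in exons of other genes, mainly Rnf31. The part of this overlap in the Rnf31 value was not tested.

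Rec8, a cohesin subunit, rose from 43.8 ± 2.82 to 62.1 ± 2.01 CPM (SD, n = 3). By edgeR this was 0.50 on the log2 scale (SE 0.08), with an adjusted p of 0.000427. Emc9, which lies between Psme1 and Psme2 and runs into the end of Psme1, was at 0.05 (SE 0.18, edgeR adjusted p 0.889), and its exons overlap 0.634% of those of Psme1. Pck2, Dcaf11, Ipo4 and Tm9sf1 did not pass, with edgeR adjusted p-values of 0.839, 0.712, 0.119 and 0.447. These neighbours were chosen after values of the members had been seen.

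**Figure D5:**
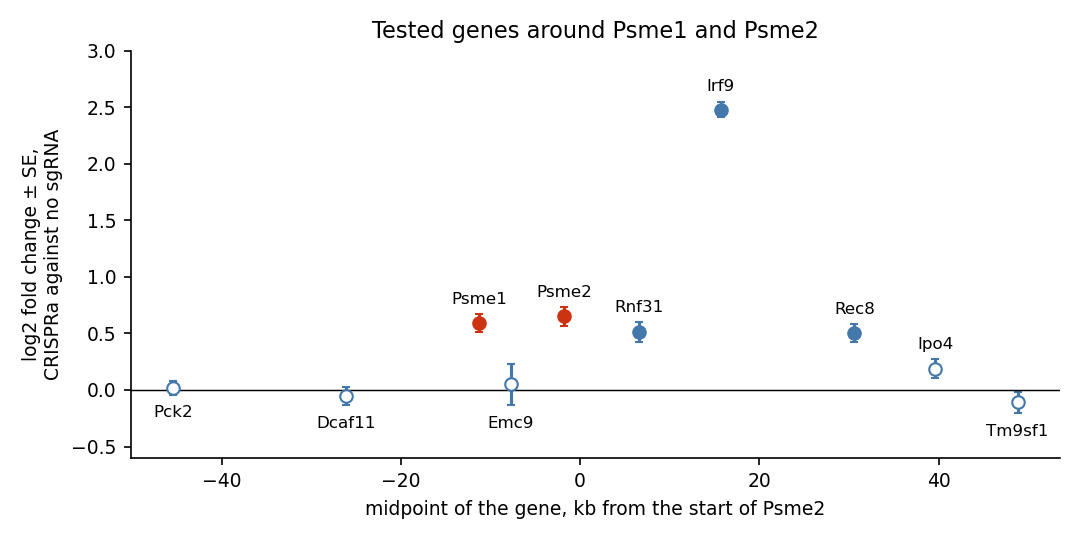
Log2 fold change ± SE of CRISPRa against no sgRNA (y axis) for the 10 tested genes within 50 kb of the Psme1 and Psme2 pair, by the distance of their midpoint from the start of Psme2 in kb (x axis); filled points passed an adjusted p of 0.05. Psme1, Psme2, Rnf31 and Rec8 lie between 0.50 and 0.65, Irf9 at 2.48, and Emc9, between the Psme genes, at 0.05.

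The other genes of the pathway were taken from a list of assembly factors, regulators and shuttles, of which 29 were found by name and 28 tested. By edgeR 5 rose and none fell: the 3 immunoproteasome genes, Psme2b and Nfe2l2, where 9.47% of all tested genes rose and 9.25% fell. Beside that 0, Ubqln1 and Uchl5 were lower at an unadjusted edgeR p under 0.05, as were 2414 of all 15117 tested genes. DESeq2 and limma-voom each called 1 lower, Ubqln1 (adjusted p 0.0471 and 0.0467). The median over the 25 tested genes outside the immunoproteasome was -0.048. Nfe2l2 encodes the oxidative stress factor NRF2. It was at 46.1, 52.1 and 52.5 CPM with CRISPRa and at 40.1, 42.7 and 43.8 CPM without the guide, with no overlap. Its log2 estimate was 0.25 (SE 0.08, edgeR adjusted p 0.0432). It lost its call in 5 of the 6 fits that left out a library, with an adjusted p of up to 0.143 without CRISPRa replicate 3.

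Nfe2l1, which encodes NRF1, the factor that raises proteasome genes when proteasome activity falls, was at 575 ± 7.14 and 558 ± 22.7 CPM (SD, n = 3). Its groups overlapped (edgeR adjusted p 0.651). The ubiquitin shuttle Ubqln1 came nearest to the threshold on the lower side, at -0.17 (SE 0.06, edgeR adjusted p 0.0575), with groups that did not overlap. Pomp, the maturation factor of the core, was at -0.17 (edgeR adjusted p 0.277). The subunits Adrm1 and Sem1, whose names fall outside the rule, were at -0.07 and -0.17 (edgeR adjusted p 0.463 and 0.216), and Adrm1 shares 25.7% of its words with Gm9774.

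The authors' deposited table, over 8 samples, the number that the labels list, gives an adjusted p for 38 members. It has 4 members past 0.05, all higher, and none lower, where 28.6% of its 13798 genes with an adjusted p pass and 14.8% pass as higher. Its values are 0.62 for Psme1 (adjusted p 3.16e-13), 0.68 for Psme2 (3.03e-18) and 0.31 for Psme4 (0.000126), beside Psmd1 given above, while Psme3 is at 0.09 (0.243). The table does not name its samples, and it is not taken as an independent measurement. Its direction is not stated and was taken as CRISPRa against no sgRNA.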

How the data were processed

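RNA of Neuro2a cultures was sequenced after poly(A) enrichment, per the labels' protocols. Gene-level read counts, deposited without normalisation, come from STAR 2.5.1b and featureCounts on mm10, per the submitters' processing notes; the annotation, strandedness and handling of multi-mapped reads are not given in the sources used here. The labels list 8 samples, and the counts of 6 were analysed here. The deposited table also gives exon length in bases. The authors' own comparison, per the file headers, holds a signal (mean normalised count), log2 fold changes, a Wald score and p-values, and these were not recomputed.

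Groups came from sample titles. The main test was edgeR 4.0.16 (quasi-likelihood, TMM scaling, filterByExpr, R 4.3.3) on all 15117 tested genes, with Benjamini-Hochberg adjustment over all of them. The SE is the size of the log2 fold change over the square root of F, and intervals use its t distribution at 95%. DESeq2 1.42.0, limma-voom (limma 3.58.1), 3 scalings, 2 filters, GC and gene-length trends (lowess, span 0.2), left-out libraries, thresholds of 0.01 and 0.1 and a replicate block were alternatives; length of the longest coding transcript was added after the data were seen. Scripts were tested on simulated data. Locations are GENCODE M21 on GRCm38; shared words are 50 bases of its transcripts; promoters are RefSeq, GRCm38.p6. Depth, 29739422 to 34248514 counts, gave at least 396 counts per library for each tested member.

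Members and lists were chosen with earlier results of these data known. Named in full were the 4 activators, per other class the member with the smallest p (none passed there), the immunoproteasome genes, related genes that passed, and Scn2a. Other named genes were chosen after their values were seen. Some genes of the marker lists are not reported here by name, while counts and sums over the lists include them.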

Additional observations from a re-analysis of the deposited data

How the results depend on the processing

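Psme1, Psme2 and Psme4 passed in all 12 alternative fits with every library or libraries 2 and 3, and in all 6 that left out 1 library. Their log2 fold changes ran from 0.51 to 0.70, 0.57 to 0.76 and 0.24 to 0.40. The count of members called lower moved from 0 to 1 (Psmb6) at an adjusted p under 0.1, and leaving out 1 library gave 0 to 1, the 1 being without no-sgRNA replicate 2. Leaving out 1 library gave 3 to 6 related genes higher and 0 to 2 lower, with 3 higher without CRISPRa replicate 5 or no-sgRNA replicate 3; an adjusted p under 0.01 gave 3 higher, and under 0.1 gave 1 lower. Related genes lower numbered 1 with DESeq2 and limma-voom. Equal replicate numbers did not deviate together (correlations of -0.00459 and -0.0256 for numbers 2 and 3 over 15117 genes). With the replicate block on libraries 2 and 3, 2 related genes were lower, also 2 with those libraries unblocked and 1 with the block and the gene-length trend removed; Psma4 passed with the block (log2 fold change 0.20, adjusted p 0.0295) and with block and length trend (0.24, adjusted p 0.00453) but not in the same libraries unblocked (0.20, adjusted p 0.0527). Psme2b did not pass with the block (0.81, adjusted p 0.0588) or unblocked (0.81, adjusted p 0.0742).

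The medians of the alpha ring, beta ring, 3 further base subunits and lid, all near 0, changed sign in some fits. The activator median stayed between 0.45 and 0.51. With the gene-length trend removed, the alpha ring stood at 0.05, and with the block as well at 0.08. The 3 further base subunits stood at 0.03 with the block, 0.03 unblocked and 0.06 with block and length trend, and from -0.06 to 0.05 when 1 library was left out. The lid stood at 0.05 with the block, 0.05 unblocked and 0.06 with block and length trend. The cause of these shifts was not tested.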
